A study of Mus musculus with 8 samples.

Results

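The 7 genes described here, Gabra2, Gabra3, Gabra4, Gabra5, Gabrb1, Gabrb2 and Gabrg3, encode subunits of the GABA-A receptor. They were chosen by name, as the rows of the count table whose Ensembl identifier belongs to 1 of these symbols, and all 7 were found among 32726 gene identifiers. All 7 passed the filter on low counts, as did 16272 genes of the whole table. A further 9 subunit genes of the family were read beside them, of which 4 passed the filter.

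Poly-A RNA was sequenced from neurons of mouse embryos that lack Nuak1 (KO, 4 libraries) or carry it intact (wild type, WT, 4 libraries), to learn which transcripts depend on NUAK1, an AMPK-related kinase needed for axon branching. The study's methods describe neurons dissociated from the cortex of mid-gestation embryos on a C57Bl/6JRj background and grown for 5 days in vitro in a serum-free medium, so the receptors were read in young neurons that are still growing axons. The knockout is constitutive, so every cell type in the dish lacks Nuak1, and KO animals die around birth. The tissue label of all 8 libraries reads cortex or hippocampus, and a strain label, not explained further, reads BJ for KO1, KO2 and KO3, BK for KO4, WT2 and WT4, BO for WT1 and BQ for WT3. Sequencing lane A held KO1, KO4, WT1 and WT3, and lane B the other 4 libraries. The study's methods give 4 animals per condition for RNA sequencing, while the labels tie no library to an animal or culture.

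Total counts ranged from 31247078 to 67155004 per library. Nuak1 itself was at 1.92 to 2.64 CPM (read count scaled to library size, with TMM factors) in the KO libraries and at 52.9 to 82.4 CPM in the WT ones, so the labels match the deleted gene. KO1 and WT1 stood apart from the other 6 libraries, at -27.6 and -28.4 on a first principal component where the others lay between 0.0733 and 22.6. Values without this pair are given for the subunits and list genes that passed the study's lower threshold, defined below, and for some others. The analysis of all 8 libraries holds 1 surrogate variable, a term estimated from the data for unwanted variation. The fits of single lanes hold none, and the fit without KO1 and WT1 was run with none and, added after its values were seen, with 1. Of 16272 tested genes, 8 (0.0492%) passed a Benjamini-Hochberg (BH) adjusted p of 0.05 in edgeR's quasi-likelihood test. The study's lower threshold, an absolute log2 fold change above 0.25 with an unadjusted p under 0.05, was passed by 574 genes lower in KO (3.53%) and by 362 genes higher in KO (2.22%), and the median log2 fold change of all tested genes was 0.015.

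GABA-A receptors are ligand-gated chloride channels built from 5 subunits around a central pore, in most neurons a combination of α and β subunits with a γ or δ subunit. GABA binds at the interface between β and α subunits, the α subunit together with γ shapes the response to benzodiazepines, and the γ subunit helps to place receptors at synapses. Many subunit genes lie in clusters on a few chromosomes. In immature neurons, where internal chloride is high, opening of the channel can depolarise the cell, and the set of α subunits that is expressed shifts as the cortex matures.

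The genes lie in such clusters in the mouse genome (RefSeq, GRCm38.p6, the build called mm10 in the processing notes). Gabra2 (chr5:70958392-71095849), Gabra4 (chr5:71569734-71658308) and Gabrb1 (chr5:71657921-72149572) are on chromosome 5, together with Gabrg1. Gabrg3 (chr7:56716463-57387215) and Gabra5 (chr7:57407669-57591016) are neighbours on chromosome 7. Gabrb2 (chr11:42419515-42632591) shares chromosome 11 with Gabra6, and Gabra3 (chrX:72432676-72656919) is on the X chromosome with Gabre and Gabrq. Gabrb1 and Gabra4 are transcribed from opposite strands and overlap by 388 bp at their 5′ ends. The counting left out reads that overlap several genes, and since use of strand is not stated, reads in this short stretch may be missing from both genes.

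The windows around the annotated start are shown for Gabrb1 and Gabra4, because these starts lie 387 bp apart while the log2 fold changes given below were -0.46 and -0.02, and for Gabrg3 and Gabrb2, the other members past the lower threshold. Each is 300 bases from RefSeq (GRCm38.p6), read 5′ to 3′ on the strand of the gene, with 250 bases before the start and 50 from it on. Capitals mark a GC box, GGGCGG on either strand. The windows are chr5:71657671-71657970 on the plus strand for Gabrb1, the first of 2 annotated windows, chr5:71658259-71658558 on the minus strand for Gabra4, chr7:57387166-57387465 on the minus strand for Gabrg3 and chr11:42420190-42420489 on the plus strand for Gabrb2, the first of 3 annotated windows for that gene.
Gabrb1: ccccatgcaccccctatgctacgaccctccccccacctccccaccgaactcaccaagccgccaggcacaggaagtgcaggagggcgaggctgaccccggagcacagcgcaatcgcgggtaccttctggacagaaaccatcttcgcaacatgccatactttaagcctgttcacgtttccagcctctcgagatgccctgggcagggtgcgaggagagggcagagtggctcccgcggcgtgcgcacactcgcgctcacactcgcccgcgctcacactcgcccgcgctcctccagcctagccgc
Gabra4: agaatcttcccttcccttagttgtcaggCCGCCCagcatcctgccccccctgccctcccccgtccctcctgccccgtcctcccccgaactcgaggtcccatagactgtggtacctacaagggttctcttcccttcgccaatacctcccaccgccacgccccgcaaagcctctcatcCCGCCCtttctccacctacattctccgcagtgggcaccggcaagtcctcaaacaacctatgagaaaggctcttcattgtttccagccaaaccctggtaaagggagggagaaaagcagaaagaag
Gabrg3: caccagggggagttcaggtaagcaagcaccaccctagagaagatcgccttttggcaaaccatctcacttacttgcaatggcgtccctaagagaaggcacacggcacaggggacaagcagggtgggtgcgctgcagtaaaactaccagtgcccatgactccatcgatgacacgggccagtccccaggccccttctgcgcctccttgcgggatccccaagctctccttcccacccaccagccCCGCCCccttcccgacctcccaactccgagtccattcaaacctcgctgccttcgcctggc
Gabrb2: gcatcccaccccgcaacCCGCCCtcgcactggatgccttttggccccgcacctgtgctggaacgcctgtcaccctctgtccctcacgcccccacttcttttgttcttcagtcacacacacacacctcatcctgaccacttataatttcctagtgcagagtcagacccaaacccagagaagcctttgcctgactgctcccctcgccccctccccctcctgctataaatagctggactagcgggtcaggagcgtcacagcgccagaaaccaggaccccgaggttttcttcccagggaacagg

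The Gabrb1 window held 25 CG dinucleotides and 66.0% G or C, and none of the 3 motifs searched on both strands, the GC box, CCAAT and TATAAA. The Gabra4 window held 12 CG dinucleotides, 2 GC boxes and 1 CCAAT. The Gabrg3 window held 13 CG dinucleotides and 1 GC box. The Gabrb2 window held 11 CG dinucleotides, 1 GC box and 1 TATAAA. Over all 32851 promoter windows of this length, 35.7% held a GC box, 37.4% CCAAT and 13.6% TATAAA, and the median window held 7 CG dinucleotides and 52.7% G or C. All 7 genes matched a window, 11 windows in all. The lowest G or C content was that of Gabra3 (43.0% and 39.3% in its 2 windows, each with no CG dinucleotide), apart from 41.0% in the third window of Gabrb2. The highest was 70% for Gabra2, whose window held 25 CG dinucleotides, 2 GC boxes and 1 CCAAT. These matches are descriptions of the sequence only.

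Of the 7 members, 3 passed the lower threshold and all 3 were lower in KO: Gabrb1, Gabrb2 and Gabrg3. The same direction and threshold were met by 3.53% of all tested genes. None of the 4 α subunits passed it, and no member was past it in the other direction. No member passed the BH-adjusted threshold in edgeR, whereas 3 had an unadjusted p under 0.05. In either direction, 1728 of all 16272 tested genes had an unadjusted p under 0.05 in edgeR. The median log2 fold change (KO minus WT) of the 7 was -0.13. As the samples are bulk RNA, fewer cells that express a subunit and less of its RNA per cell cannot be told apart.

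**Figure D1:**
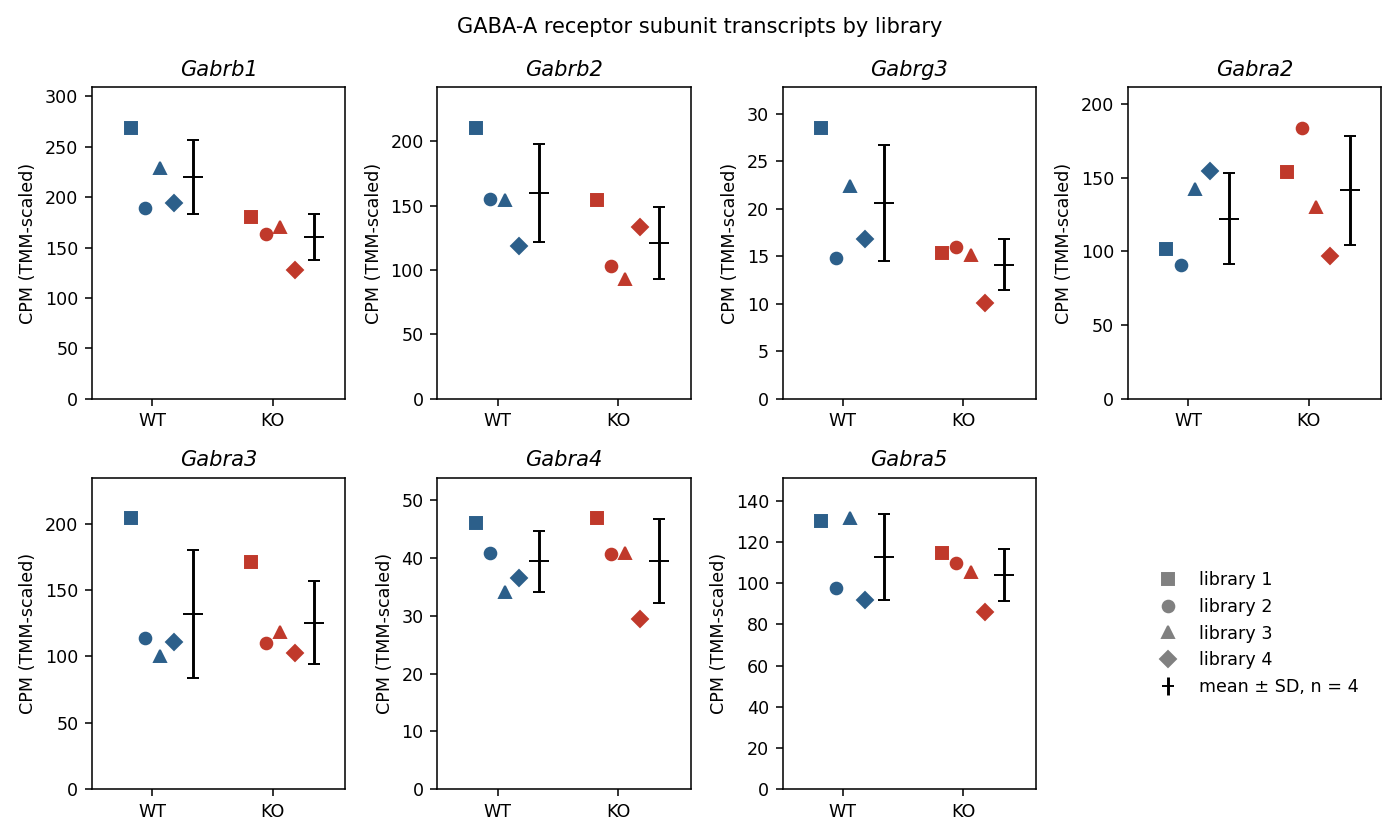
Transcript level (TMM-scaled CPM, axes from 0) of the 7 subunits in each of the 4 WT libraries (blue) and 4 KO libraries (red), with the marker shape giving the library number and the bar the mean ± SD. For Gabrb1 all KO libraries (128 to 180.0 CPM) sit below all WT libraries (190 to 269 CPM), and for the other 6 subunits the genotypes overlap.

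Gabrb1 encodes β1, a pore-forming subunit that contributes to the GABA binding site. It was at 180.0, 164, 171 and 128 CPM in KO1 to KO4 and at 269, 190, 229 and 194 CPM in WT1 to WT4. Every KO library was below every WT library, and KO4 was the lowest and WT1 the highest of the 8. The means were 161 ± 22.7 CPM for KO and 220.4 ± 36.7 CPM for WT (SD, n = 4), a difference of -27.1%, resting on 5159 to 12168 counts per library. The log2 fold change was -0.46 (SE 0.11, 95% interval -0.70 to -0.23, unadjusted p = 0.00151), place 98 of all tested genes by p, with an adjusted p of 0.248 in edgeR. The exact two-sided permutation test over libraries gave p = 0.0286, the smallest value that 4 against 4 libraries allow. Of all tested genes, 1.12% had non-overlapping CPM with KO lower.

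Within lane A, Gabrb1 was at 180.0 and 128 CPM in KO against 269 and 229 CPM in WT, a log2 fold change of -0.70 (edgeR, unadjusted p = 0.0515). Within lane B it was at 164 and 171 CPM against 190 and 194 CPM, a log2 fold change of -0.21 (edgeR, unadjusted p = 0.0229). Separation within each lane follows from that over all 8 libraries and adds nothing to it, while the gap was larger on lane A. The difference between the lanes, lane B minus lane A, was 0.49 (SE 0.27, interaction test in edgeR, unadjusted p = 0.108, adjusted p = 1.0). Without KO1 and WT1 the log2 fold change was -0.40 with no surrogate variable (edgeR, unadjusted p = 0.0122) and -0.42 with 1 (edgeR, unadjusted p = 0.0163). Over 23 alternative analyses the value for Gabrb1 stayed below 0, between -0.70 and -0.21, and passed the lower threshold in 21. The adjusted p was below 0.05 in 2 of the 23, DESeq2 (0.00847) and edgeR without a count filter (0.0246), and ranged up to 1.0 in the others.

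Gabrb2 encodes β2, the β subunit of the receptor combination that is most common in the adult brain. It was at 154, 103, 92.9 and 134 CPM in KO1 to KO4 and at 210, 155, 154 and 118 CPM in WT1 to WT4. WT1 was the highest library, KO2 and KO3 were the lowest, and KO1 and KO4 lay within the WT range. The means were 121 ± 28.2 CPM for KO and 159.5 ± 38.0 CPM for WT (SD, n = 4), a difference of -24.2%. The log2 fold change was -0.41 (SE 0.15, 95% interval -0.75 to -0.07, unadjusted p = 0.0243, adjusted p = 0.406, edgeR), while the exact permutation test, which uses no surrogate variable, gave p = 0.143. Lane A alone gave a log2 fold change of -0.35, lane B alone -0.49, and the 6 libraries other than KO1 and WT1 -0.38 (edgeR, unadjusted p = 0.248, 0.00562 and 0.0411). With 1 surrogate variable the value without that pair was -0.24 (edgeR, unadjusted p = 0.0489), short of the fold limit. Without WT1 alone it was -0.24 with the 2 surrogate variables estimated for those libraries (edgeR, unadjusted p = 0.0295) and -0.36 with 1 (edgeR, unadjusted p = 0.112). It was also short of the lower threshold without KO2, KO3, WT2 or WT3 alone (-0.35, -0.32, -0.39 and -0.34, edgeR, unadjusted p = 0.0734, 0.069, 0.052 and 0.0857). All 8 libraries gave -0.40 with no surrogate variable (edgeR, unadjusted p = 0.0866) and -0.25 with 2 (edgeR, unadjusted p = 0.0139), neither past the lower threshold. With the strain label as a term it was -0.03 (SE 0.33, edgeR, unadjusted p = 0.922), a fit in which genotype is read from KO4 against WT2 and WT4 alone, since BK is the one label found in both genotypes. Over the 23 alternatives the value for Gabrb2 ranged from -0.55 to -0.03, and it passed the lower threshold in 13.

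Gabrg3 encodes γ3, a γ subunit that is rare in most of the brain. It had the fewest counts of the 7, 407 to 1069 per library. It was at 15.3, 16, 15.1 and 10.1 CPM in KO1 to KO4 and at 28.5, 14.8, 22.4 and 16.8 CPM in WT1 to WT4. WT1 and WT3 were above every KO library, WT2 was below 3 of the KO libraries, and KO4 was the lowest of the 8. The means were 14.1 ± 2.70 CPM for KO and 20.6 ± 6.13 CPM for WT (SD, n = 4), a difference of -31.5%. The log2 fold change was -0.54 (SE 0.19, 95% interval -0.96 to -0.12, unadjusted p = 0.0175, adjusted p = 0.387, edgeR), and the exact permutation test gave p = 0.114.

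The estimate for Gabrg3 differed between the lanes before adjustment over all genes. On lane A, KO1 and KO4 (15.3 and 10.1 CPM) were below WT1 and WT3 (28.5 and 22.4 CPM), a log2 fold change of -1.0. On lane B, KO2 and KO3 (16 and 15.1 CPM) lay between WT2 and WT4 (14.8 and 16.8 CPM), a log2 fold change of -0.04 (edgeR, unadjusted p = 0.0378 on lane A and 0.769 on lane B). Lane B minus lane A was 0.97 (SE 0.35, interaction test in edgeR, unadjusted p = 0.0297, adjusted p = 1.0). This test was chosen after the values within lanes were seen, and over all genes 0 of 16272 passed the adjusted threshold in edgeR and 256 (1.57%) had an unadjusted p under 0.05. Without KO1 and WT1 the log2 fold change of Gabrg3 was -0.39 both with no surrogate variable (edgeR, unadjusted p = 0.0947) and with 1 (edgeR, unadjusted p = 0.164), no longer past the lower threshold. It was also not past it without KO1 alone (-0.47, edgeR, unadjusted p = 0.0594) or without WT1 alone (-0.38, edgeR, unadjusted p = 0.188, with 2 surrogate variables, and -0.39, edgeR, unadjusted p = 0.124, with 1). Nor was it past it in all 8 libraries with 2 surrogate variables (-0.49, edgeR, unadjusted p = 0.0716). Over the 23 alternatives the value for Gabrg3 ranged from -1.0 to -0.04, and it passed the lower threshold in 18.

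**Figure D2:**
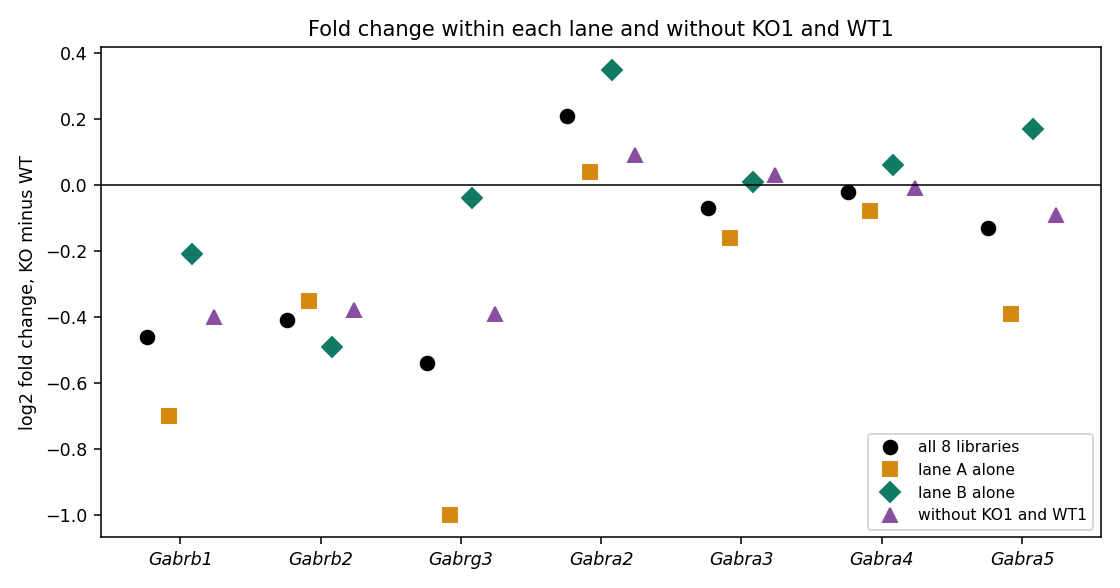
Log2 fold change (KO minus WT) of the 7 subunits from all 8 libraries (circles), from lane A alone (squares, 2 libraries per genotype), from lane B alone (diamonds, 2 per genotype) and without KO1 and WT1 (triangles), the last 3 with no surrogate variable. Gabrb1 and Gabrb2 are below 0 in all 4 sets, lane A puts Gabrg3 at -1.0 and lane B at -0.04, and Gabra2 is above 0 in all 4.

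The 4 α subunits, which with β form the GABA site and set much of the receptor's pharmacology, gave no difference past the lower threshold. Gabra2 encodes α2, an α subunit abundant in the developing forebrain. It was at 154, 184, 130.4 and 97.0 CPM in KO1 to KO4 and at 102, 90.9, 142 and 155 CPM in WT1 to WT4. The genotypes overlapped throughout, with the highest library KO2 and the lowest WT2, both on lane B. The log2 fold change was 0.21 (SE 0.23, 95% interval -0.33 to 0.75, edgeR, unadjusted p = 0.391, adjusted p = 0.777), the only one of the 7 above 0. With 1 surrogate variable it was 0.02 without WT1 and -0.05 without KO1 and WT1 (SE 0.28 and 0.33), so neither value differed from 0 by more than its error.

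Gabra3 encodes α3, an α subunit that is high in the embryonic and early postnatal cortex. It was at 171, 109.8, 118 and 102 CPM in KO1 to KO4 and at 204, 114, 100.4 and 111 CPM in WT1 to WT4. KO1 and WT1 were the highest of each genotype, and the other 6 libraries lay between 100.4 and 118 CPM. The log2 fold change was -0.07 with the smallest error of the 7 (SE 0.071, 95% interval -0.23 to 0.09, edgeR, unadjusted p = 0.349, adjusted p = 0.756), and without KO1 and WT1 it was 0.03 with no surrogate variable and -0.03 with 1. The level of Gabra3 followed the split of KO1 and WT1 from the other libraries.

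Gabra4 encodes α4, known from extrasynaptic receptors that contain δ. It was at 46.8, 40.6, 40.9 and 29.4 CPM in KO1 to KO4 and at 46.1, 40.9, 34.1 and 36.6 CPM in WT1 to WT4. The means were equal to 3 digits, 39.4 ± 7.28 CPM for KO and 39.4 ± 5.28 CPM for WT (SD, n = 4), and the log2 fold change was -0.02 (SE 0.099, 95% interval -0.24 to 0.20, edgeR, unadjusted p = 0.871, adjusted p = 0.967). With the strain label as a term it was -0.40 (SE 0.19, edgeR, unadjusted p = 0.0736). Its start lies 387 bp from that of Gabrb1, whose interval, -0.70 to -0.23, meets that of Gabra4 only between -0.24 and -0.23. The difference between these neighbours was not itself tested.

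Gabra5 encodes α5, best known from hippocampal extrasynaptic receptors. It was at 115, 109.5, 106 and 85.9 CPM in KO1 to KO4 and at 130.0, 97.7, 131 and 91.7 CPM in WT1 to WT4. The KO range lay almost within the WT range, with WT1 and WT3 high and KO4 lowest. The log2 fold change was -0.13 (SE 0.13, 95% interval -0.42 to 0.16, edgeR, unadjusted p = 0.354, adjusted p = 0.758). Lane A gave -0.39 and lane B 0.17, and lane B minus lane A was 0.57 (SE 0.24, interaction test in edgeR, unadjusted p = 0.0489, adjusted p = 1.0). The exact permutation p of the 4 α subunits lay between 0.486 and 1.0.

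**Figure D3:**
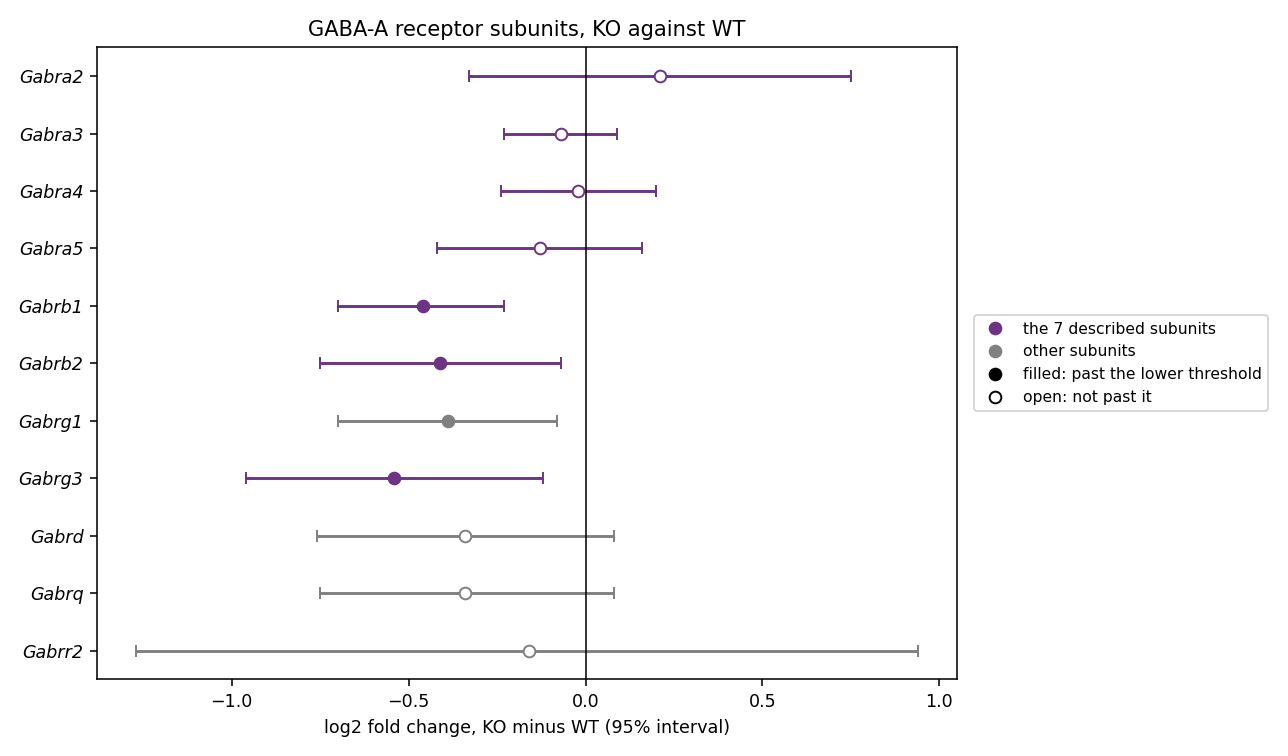
Log2 fold change (KO minus WT, edgeR) with its 95% interval for 11 GABA-A subunit genes that passed the count filter, the 7 described in detail in purple and 4 others in grey. Filled points (Gabrb1, Gabrb2, Gabrg1, Gabrg3) are past the lower threshold, and Gabra2 alone lies above 0.

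The 9 further subunit genes were read in the same way, and 4 of them passed the count filter. Gabrg1, which encodes γ1 and lies in the chromosome 5 cluster, was at 30.0, 27.6, 24.8 and 16.9 CPM in KO1 to KO4 and at 43.4, 34.2, 26.1 and 25.4 CPM in WT1 to WT4. KO4 was the lowest library and WT1 the highest, and the genotypes overlapped. The log2 fold change was -0.39 (SE 0.14, 95% interval -0.70 to -0.08, edgeR, unadjusted p = 0.0201, adjusted p = 0.393), past the lower threshold. Without KO1 and WT1 it was -0.46 with 1 surrogate variable (edgeR, unadjusted p = 0.0442), past it, and -0.31 with none (edgeR, unadjusted p = 0.145), not past it. With no surrogate variable it was not past it in all 8 libraries either (-0.38, edgeR, unadjusted p = 0.127). Without WT1 alone Gabrg1 was past it with 2 surrogate variables but not with 1 (-0.39, edgeR, unadjusted p = 0.0616). It was also not past it without KO1 alone, without WT2 alone, on lane A alone (-0.57, edgeR, unadjusted p = 0.247) or on lane B alone (-0.20, edgeR, unadjusted p = 0.194).

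Gabrd (δ, a subunit of extrasynaptic receptors) and Gabrq (θ) had log2 fold changes of -0.34 each (edgeR, unadjusted p = 0.0998 and 0.0999) and Gabrr2 (ρ2) of -0.16 (edgeR, unadjusted p = 0.746). Without KO1 and WT1 the values were -0.22 for Gabrd, -0.17 for Gabrq and -0.12 for Gabrr2 with no surrogate variable. With 1 they were -0.17, -0.20 and -0.68. Lanes A and B alone gave -0.09 and -0.51 for Gabrd, and -0.61 and -0.01 for Gabrq. Gabra6, Gabre, Gabrp, Gabrr1 and Gabrr3 had 0 to 10 counts per library and were not tested. Across these 11 tested subunits, 4 were past the lower threshold and lower in KO (3.53% of all tested genes) and 0 were past it and higher (2.22%). Without KO1 and WT1 this count was 2 of 11, Gabrb1 and Gabrg1 with 1 surrogate variable (2.30% of all genes tested) and Gabrb1 and Gabrb2 with none (2.03%). It was also 2 of 11, Gabrb1 and Gabrg3, in all 8 libraries with no surrogate variable (1.59%), and 4 of 11 without KO3 and WT4 (3.63%). Without WT1 alone the count was 1 of 11 with 1 surrogate variable (Gabrb1, 2.17%) and 2 of 11 with 2 (Gabrb1 and Gabrg1, 2.49%). The count was 2 of 11 without KO1 alone (2.86%) and 5 of 11 without KO4 alone (3.82%). On single lanes it was 1 of 10 on lane A (0.462%) and 2 of 11 on lane B (4.53%). Over the 23 alternatives none of the subunits was past the lower threshold and higher in KO.

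The summed CPM of the 7 members was 836, 727, 674 and 586 in KO1 to KO4 and 989, 703, 814 and 723 in WT1 to WT4. WT1 was the highest and KO4 the lowest, and the genotypes overlapped. KO4 was also the lowest of the 8 libraries for 4 of the 7 members, Gabra4, Gabra5, Gabrb1 and Gabrg3. Without KO4, the log2 fold change was still past the lower threshold for 3 of the 7 members, Gabrb1, Gabrb2 and Gabrg3, beside 3.82% of all genes tested that were past it and lower in KO. Without WT1 it was past it for Gabrb1 alone, both with 1 surrogate variable (2.17% of all genes) and with 2 (2.49%).

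Per length, in CPM per kb of annotated exon, the members spanned a wide range. Gabrb1 had the highest median of the 7 over the 8 libraries (59.8, range 41.5 to 87.0), followed by Gabra2 (57.0, 38.0 to 76.9), Gabra5 (40.5, 32.4 to 49.5) and Gabra3 (28.6, 25.6 to 52.0). Neighbours in this order overlapped in their ranges. The means of the top pair, whose difference was not tested, had another order in KO than in WT, although Gabrb1 was above Gabra2 in 5 of the 8 libraries. They were 52.0 ± 7.35 for Gabrb1 and 59.1 ± 15.4 for Gabra2 in KO, and 71.4 ± 11.9 and 51.1 ± 12.9 in WT (SD, n = 4). The next member, Gabrb2 (14.5, 9.36 to 21.2), did not overlap Gabra3, and was followed by Gabra4 (9.87, 7.11 to 11.3), which overlapped it. Gabrg3 was lowest (1.31, 0.847 to 2.39). Of the further subunits, Gabrg1 (5.63, 3.53 to 9.09) and Gabrd (2.08, 0.856 to 2.67) lay between Gabra4 and Gabrg3, each overlapping 1 of those members.

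**Figure D4:**
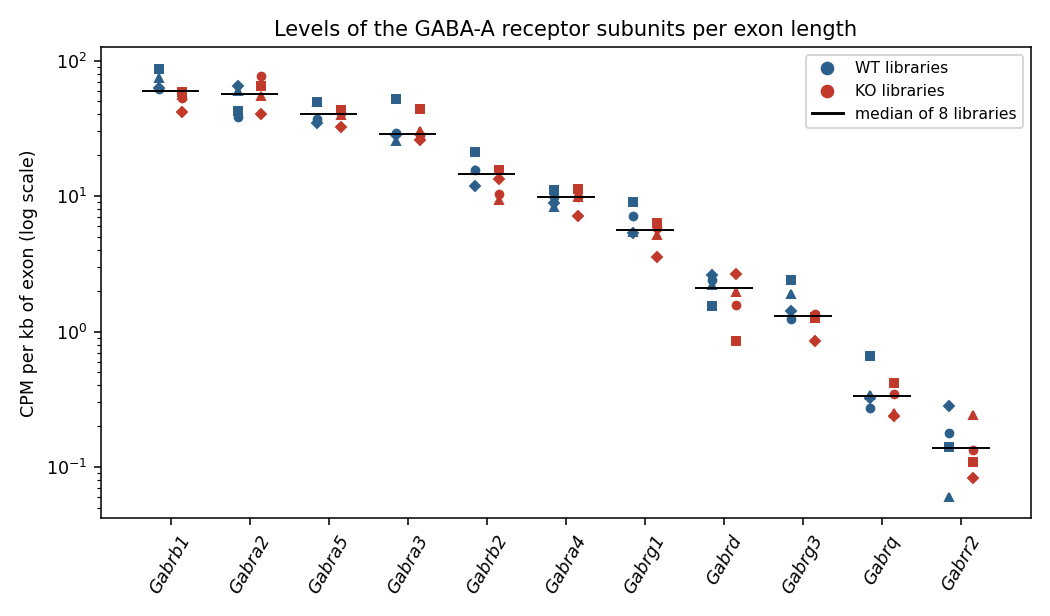
Level per exon length (CPM per kb, log axis) of 11 tested GABA-A subunits in the WT libraries (blue) and KO libraries (red), ordered by the median of the 8 libraries (line), with marker shapes as the library number. The medians run from 59.8 for Gabrb1 to 0.137 for Gabrr2.

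As shares of the summed per-length levels of the 4 α members, Gabra2 made up 41.9% ± 5.00 in KO and 37.5% ± 8.81 in WT (SD, n = 4). Gabra5 made up 28.3% ± 2.08 and 31% ± 3.99, Gabra3 22.9% ± 3.79 and 24.4% ± 6.87, and Gabra4 6.84% ± 0.450 and 7.06% ± 1.25. In WT1, Gabra3 (33.6%) was above Gabra2 (27.5%), and in the other 7 libraries Gabra2 was the largest of these shares, by the smallest margin in WT2 (33.4% against 32.4% for Gabra5). Of the sum of Gabrb1 and Gabrb2, Gabrb1 held 80.9% ± 4.53 in KO and 81.7% ± 2.01 in WT. In each of these shares the KO and WT libraries overlapped.

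The members did not all vary together across libraries. Gabrb1 and Gabrg3, which lie on different chromosomes, had the most similar pattern, with Pearson's r of 0.97 between their log2 CPM over the 8 libraries and 0.94 without KO1 and WT1. Gabra5 followed Gabrg3 (0.84 and 0.84). Gabra3 and Gabra4 were at 0.78 and 0.82. Gabra2 and Gabrb2 ran in opposite directions, at -0.50 and -0.54. The neighbours Gabra4 and Gabrb1 were at 0.51 and 0.38. These values describe 8 libraries that share lanes and the split of KO1 and WT1, and the genotype difference is part of them.

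**Figure D5:**
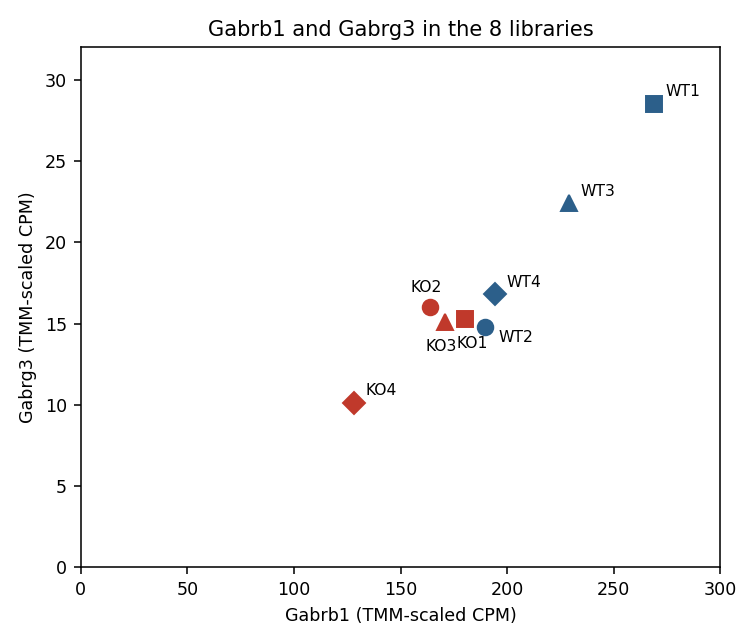
Level of Gabrg3 against Gabrb1 (TMM-scaled CPM) in the 8 libraries, WT in blue and KO in red. WT1 and WT3 lie at the top right, KO4 at the bottom left, and the other 5 libraries between 14.8 and 16.8 CPM of Gabrg3.

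Among 13700 genes with a mean of at least 1 CPM, the genes whose levels were most like each member over the 8 libraries were sought by Pearson's r of log2 CPM. For Gabrb1 they were Unc80 (0.981), Gabrg3 (0.967) and Kcnt2 (0.961), and for Gabrg3 Unc80 (0.988), Spata7 (0.969) and Gabrb1 (0.967). Unc80 encodes a part of the NALCN sodium leak channel complex and Kcnt2 a sodium-activated potassium channel. For Gabrb2 they were Clgn (0.985), Pcdhb2 (0.965) and Ablim1 (0.964). For Gabra2 they were Alkbh5 (0.990), Irf2bp2 (0.945) and Vipr1 (0.942), for Gabra4 Myo6 (0.986), Zmym6 (0.980) and Med12l (0.971), and for Gabra5 Prickle2 (0.991), Cdc42bpa (0.983) and 1520402A15Rik (0.981). Those of Gabra3 were Trim36 (0.991), Rpgr (0.987) and Gspt2 (0.985), which dropped to 0.83, 0.75 and 0.77 without KO1 and WT1, whereas those of the other members stayed at 0.942 or above.

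Genes that act with these receptors were described from lists. Of 23 tested genes for assembly, trafficking and anchoring of the receptor, which include gephyrin (Gphn, log2 fold change -0.06, SE 0.091), 0 passed the lower threshold in edgeR and the median was 0.01. Likewise 0 of 7 tested genes for GABA synthesis, transport and breakdown (median -0.03), 0 of 4 for the GABA-B receptor (-0.07) and 0 of 9 for chloride transport (-0.04) passed it. In these lists and that of the glycine receptor, 4 genes that were named after their values were seen had an unadjusted p under 0.05 but missed the fold limit. They were Slc12a2, which encodes the chloride importer NKCC1 (-0.24, SE 0.057), the kinase gene Wnk3 (-0.19, SE 0.074), Glrb, the β subunit of the glycine receptor (-0.22, SE 0.084), and Iqsec3 (0.24, SE 0.10), with edgeR's unadjusted p = 0.00173, 0.0322, 0.024 and 0.0407. With no surrogate variable none of the 4 had an unadjusted p under 0.05 in edgeR (0.25, 0.246, 0.137 and 0.121), and with the pair KO1 and WT1 also left out only Slc12a2 did (edgeR, unadjusted p = 0.041, 0.0537, 0.0738 and 0.233). Gad1, which makes GABA, was at 63.6 to 149 CPM across KO libraries and 69.2 to 133 CPM across WT libraries (log2 fold change -0.01, SE 0.28). Of 3 tested subunits of the glycine receptor, another inhibitory chloride channel, 1 passed the lower threshold, Glra2, the α subunit of immature neurons. It was lower in KO, as were 3.53% of all tested genes at this threshold. Glra2 was at 152, 127, 147 and 161 CPM in KO1 to KO4 and at 231, 164, 168 and 163 CPM in WT1 to WT4, with every KO library below every WT library and a log2 fold change of -0.30 (SE 0.10, edgeR, unadjusted p = 0.0145, adjusted p = 0.369). Without KO1 and WT1 it was -0.19 with no surrogate variable (edgeR, unadjusted p = 0.0955) and -0.14 with 1 (edgeR, unadjusted p = 0.167), neither past the threshold.

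Markers of the cell types a cortical culture can hold were read beside these results, and no marker was at 0 in all libraries. Of all 16272 tested genes, 8748 had a log2 fold change above 0. The lower threshold was passed by 3.53% of them with KO lower and by 2.22% with KO higher. Pan-neuronal markers summed to 8411 to 10059 CPM across KO libraries and 8555 to 9872 CPM across WT libraries, with 0 of 10 past the lower threshold. For glutamatergic neurons the sums were 807 to 1053 CPM (KO) and 801 to 1069 CPM (WT), and 1 of 11 was past it, Slc17a7 (-0.32, unadjusted p = 0.0185, edgeR). For interneurons the sums were 268 to 414 and 248 to 376 CPM, and 1 of 13 was past it, Calb2 (0.66, unadjusted p = 0.00406, edgeR). Of these 13 interneuron markers 9 were above 0, with a median of 0.18. Among them, named after their values were seen, were Dlx1 at 0.66, Dlx2 at 0.51, Lhx6 at 0.41 and Dlx6 at 0.38 (edgeR, unadjusted p = 0.092, 0.0591, 0.0829 and 0.0984). Those below 0 were Slc32a1 (-0.17), Sst (-0.07), Gad1 (-0.01) and Maf (-0.01). With no surrogate variable Dlx1, Dlx2, Lhx6 and Dlx6 had weaker or like support (edgeR, unadjusted p = 0.197, 0.147, 0.0809 and 0.139). With KO1 and WT1 also left out, only Dlx2 of these had an unadjusted p under 0.05 (0.72, edgeR, unadjusted p = 0.0285). For hippocampal neurons the sums were 167 to 235 and 183 to 241 CPM, with Prox1 past it (0.34, 1 of 7). Astrocyte markers summed to 864 to 1630 and 910.1 to 1475 CPM (0 of 7 past it), progenitor markers to 371 to 455 and 278 to 387 CPM (Top2a, 0.47, 1 of 8) and oligodendrocyte precursor markers to 454 to 556 and 451 to 558 CPM (0 of 5). Microglial markers summed to 3.85 to 46.5 and 4.34 to 19.9 CPM (0 of 8 past it, although 7 of 8 had log2 fold changes above 0, with a median of 1.38) and those of endothelial cells and fibroblasts to 12.6 to 21.9 and 6.90 to 35.4 CPM (0 of 7). Without KO1 and WT1 and with 1 surrogate variable, Calb2 (0.70, unadjusted p = 0.0024, edgeR) was still past the threshold, and Slc17a7 (-0.12), Prox1 (0.26) and Top2a (0.34) were not (edgeR, unadjusted p = 0.326, 0.131 and 0.213). With no surrogate variable none of these 4 was past it, with or without the pair. In the astrocyte list 6 of 7 were above 0, with a median of 0.22. KO4, the library lowest in Gabrb1 and Gabrg3, had the lowest astrocyte sum (864 CPM) and the highest pan-neuronal sum (10059 CPM) of the 8. WT1, the highest in both genes, had astrocyte and pan-neuronal sums of 1475 and 9872 CPM. WT3, also high in both genes (229 and 22.4 CPM), had sums of 910 and 9634 CPM. KO3, at 171 CPM of Gabrb1 and 15.1 CPM of Gabrg3, had the highest astrocyte sum (1630 CPM) and a pan-neuronal sum of 8728 CPM. The part of these cell types in the subunit differences was not tested.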

How the data were processed

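RNA-seq of poly-A RNA covered 4 KO and 4 WT libraries, grouped by the description in the labels. The authors deposited whole-number read counts for each Ensembl gene, not normalized. Per the methods and processing notes, reads were trimmed with Cutadapt 1.10, ribosomal reads were removed, the rest was aligned to mm10 with STAR 2.5.3a and unique reads were counted with HTSeq 0.6.1p1 in union mode, without pooling replicates. Read length and layout differ between labels and methods. Counts lost to multiple or overlapping alignment lower a gene's level.

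Counts were filtered by filterByExpr and TMM-scaled, and genotype was tested with edgeR 4.0.16 (R 4.3.3, robust quasi-likelihood F test, BH over 16272 genes, threshold 0.05) with 1 surrogate variable (sva 3.50.0). The SE is the absolute log2 fold change over the square root of F. Single CPM values were compared by a two-sided exact permutation test. Alternatives used DESeq2 1.42.0, limma-voom (limma 3.58.1), other filters, factors and terms, single lanes, and left-out libraries. The lane interaction and the left-out fits held at 1 surrogate variable were chosen after seeing the data. The procedure was tested on simulated data. Per-length levels used exon lengths of an older annotation (NCBIM37), positions and promoter windows RefSeq GRCm38.p6. All 7 members, further tested subunits, list genes past the lower threshold and the 3 genes most like each member were named. The members and lists were chosen with earlier results of these data known. Precision from depth is lowest for Gabrg3, the member with the fewest counts, and no molecular identifiers were used. Some other genes of the subunit family and of the lists are not reported here, and the counts leave them out.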

Additional observations from a re-analysis of the deposited data

Results flagged for a closer look

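Over 14 sets of 4 libraries (7 members in 2 genotypes), Dixon's test picked out 2 libraries, where chance gives 0.7. Gabra3 in WT1, at 203.9 CPM, lay far above the other WT libraries (100.4 to 114 CPM). Gabrg3 in KO4, at 10.1 CPM, lay far below the other KO libraries (15.1 to 16 CPM).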

How the results depend on the processing

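Over 23 alternatives, the log2 fold changes ranged from -0.70 to -0.21 for Gabrb1, from -0.55 to -0.03 for Gabrb2 and from -1.0 to -0.04 for Gabrg3, and the 4 α subunits never passed the lower threshold. Gabrb1 passed the adjusted threshold with no count filter (-0.46) and in DESeq2 (-0.47). The strain label as a term, which sets KO4 alone against WT2 and WT4, took Gabrb2 to -0.034 and Gabra4 to -0.40 and turned the sign of Gabra2 (-0.34). Gabra2 also changed sign, in a fit added after seeing the data, without KO1 and WT1 with 1 surrogate variable (-0.055). Others that changed sign were Gabra3, Gabra4 and Gabra5 on lane B alone (0.014, 0.063 and 0.17), and Gabra3 without KO1 and WT1 (0.026). Leaving out each library in turn gave -0.052 (without WT1) to 0.39 for Gabra2, -0.13 to 0.078 (without KO4) for Gabra4, which was also above 0 without WT2 (0.033), and -0.21 to 0.015 (without WT3) for Gabra5. Members past the lower threshold, 3 in the main analysis, numbered 1 with 2 surrogate variables (Gabrb1, beside 3.65% of all genes tested that were past it and lower in KO), 1 for lane A (Gabrg3, 0.462%), 1 for lane B (Gabrb2, 4.53%) and 1 without WT1 (Gabrb1, 2.49%), the range over left-out libraries being 1 to 3. The fits of single lanes, of the strain label, of the replicate block and without KO1 and WT1 hold no surrogate variable, and that without WT1 holds 2, so each differs from the main analysis in 2 choices. With 1 surrogate variable, 1 member (Gabrb1) was past it without WT1 (2.17%) and without KO1 and WT1 (2.30%), and 3 genes passed the adjusted threshold in each. The cause was not tested.

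Genes past the adjusted threshold, 8 in the main analysis, numbered 4 with no surrogate variable, 4 with 2, 14 with lane as a term, 1 with the strain label, 45 with no count filter, 160 in DESeq2, 0 on lane A alone (edgeR, 96 at an unadjusted p under 0.05), 99 on lane B alone, 3 without KO1 and WT1, 3 without KO3 and WT4, and 3 to 91 without each library in turn, the highest without WT3. Genes past the lower threshold, 936 in the main analysis, numbered 396 with no surrogate variable, 310 with the strain label, 1488 with no count filter, 555 without KO1 and WT1, 96 for lane A and 1612 for lane B, and 606 without WT1 with 1 surrogate variable.

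Replicate numbers did not pair the libraries: same-numbered KO and WT libraries correlated at 0.80, 0.012, 0.249 and 0.002 in their deviations from the genotype means, and 1 of the 4 numbers correlated best with itself. With the replicate block 3 genes passed the adjusted threshold, and the log2 fold changes of Gabrb1, Gabrb2 and Gabrg3 were -0.45, -0.40 and -0.52, all past the lower threshold.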
